A study of Mus musculus with 11 samples.

Results

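Besides the olfactory sensory neurons (OSNs) that signal through odorant receptors, the main olfactory epithelium (MOE) holds small groups of chemosensory cells that use other receptors. To ask how transcripts of such cells stand in newborn mice without the zinc finger transcription factor Bcl11b, 8 genes were examined: Gucy2d (guanylyl cyclase-D, GC-D), Cnga3, Pde2a, Car2, Ms4a6c, Ms4a4b, Taar1 and Trpc2. A probe set was taken where the annotation of the Mouse Genome 430 2.0 array gave it exactly 1 of these symbols. This found 11 of the 45101 probe sets, for 6 of the 8 genes, 5 of which could be tested. In the annotation used here no probe set named Gucy2d or Cnga3, alone or beside other genes, so that GC-D itself and its channel subunit were not analysed here, and the name of the group rests on genes that other cells also use. Of the 11 probe sets, 8 reached a mean signal of 20 over all arrays and were tested, 1 was left out for Ms4a6c and both were left out for Ms4a4b.

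The arrays came from whole MOE at postnatal day 0. There were 6 preparations from mice homozygous for a constitutive Bcl11b knockout (KO), 4 from males and 2 (KO 3 and KO 6) from females, and 5 preparations from wild type males. All carried the strain label BALB/c and were offspring of heterozygous parents, with RNA taken from each MOE separately. The KO is not limited to OSNs, so the other cells of the dissected tissue and of the body lack Bcl11b as well.

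GC-D neurons lie in the recesses of the MOE and send their axons to the necklace glomeruli at the back of the olfactory bulb. They lack the cAMP cascade of ordinary OSNs. In them GC-D makes cGMP on exposure to the peptides guanylin and uroguanylin, Car2 (carbonic anhydrase II) turns carbon dioxide into the bicarbonate that also drives the cyclase, Cnga3 is the cGMP-gated channel subunit and Pde2a is a phosphodiesterase stimulated by cGMP. The same necklace neurons carry MS4A proteins, which span the membrane 4 times and have been described as chemoreceptors there. Trace amine-associated receptors (TAARs) are carried by a further set of OSNs, except for Taar1, which is known from the brain and not from OSNs. Trpc2 is the cation channel of vomeronasal neurons and also occurs in rare cells of the MOE.

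None of the 8 tested probe sets of these genes passed the threshold between KO and wild type (limma, adjusted p under 0.05), where 0.455% of the 33662 tested probe sets did. At an unadjusted p under 0.05 there were 2 of 8, Car2 (lower) and Ms4a6c (higher), beside 6.92% of all tested. In none of the 8 were the arrays of the groups free of overlap, which held for 1.29% of all tested. The median change over the 8 was 0.13 on the log2 scale, beside 0.05 over all tested probe sets. Here and below a change is KO minus wild type in log2(signal + 16), which understates changes of dim probe sets.

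**Figure D1:**
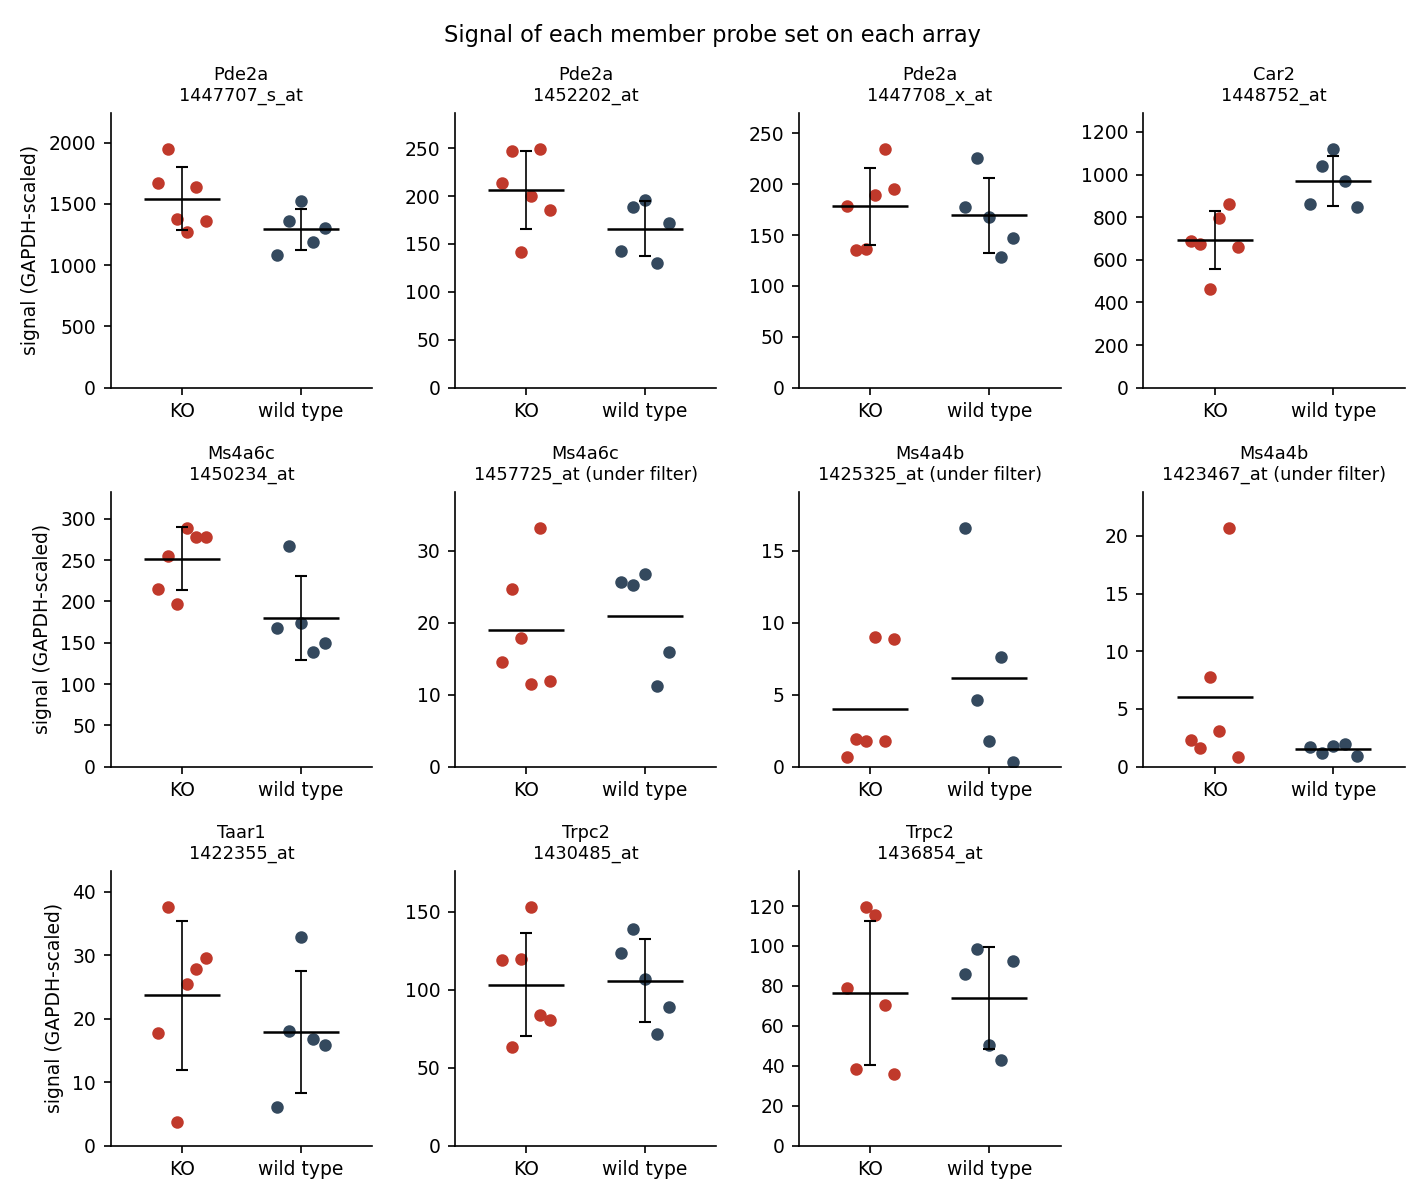
Signal scaled to GAPDH (linear axis from 0) of each of the 11 probe sets; points are arrays, KO left and wild type right, lines are group means and bars the SD, drawn for tested probe sets only. Car2 spans 464.1 to 861.9 in the KO and 846 to 1121 in wild type, and the groups overlap on every other probe set too.

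Car2 had the smallest p among them. Its probe set (1448752_at) had a lowest signal of 464.1, a median of 682.65 and a highest of 861.9 in the KO, against 863.6, 1042.5, 1121, 968.4 and 846 on the wild type arrays. Of the KO arrays only KO 5 reached the lowest wild type value, and KO 3 stood lowest. The mean was 691 ± 136 in KO (SD, n = 6) and 968 ± 117 in wild type (SD, n = 5), so that the KO had 71.4% of the wild type signal. The change was -0.49 ± 0.15 (SE; 95% interval -0.81 to -0.17), which did not pass over all probe sets (limma, adjusted p = 0.295). An exact permutation test of Car2 alone, two-sided over all divisions of the arrays into 6 and 5, gave p = 0.00866, not adjusted for the other probe sets.

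Whether Car2 passed depended on how the arrays were scaled and on which arrays were used. The deposited values rest on the GAPDH signal of each array. After quantile normalization the change was -0.55 ± 0.11 (SE) and passed (limma, adjusted p = 0.026), and after scaling on the spiked hybridization controls it was -0.67 ± 0.15 and passed (adjusted p = 0.037). After scaling on the array median it was -0.54 and did not pass (adjusted p = 0.185). Over all alternatives the adjusted p ran from 0.026 to 0.871. With the spiked scaling the median over all tested probe sets was -0.11 in place of 0.05, and Car2 lay below that median under each of these scalings. The controls used for it differed between the groups (mean log2 signal 10.66 in KO and 10.49 in wild type; exact permutation test, p = 0.0195).

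The arrays differed in several properties, and of all single arrays KO 3 moved the change of Car2 most when left out. KO 3 came from a female and had the highest GAPDH 3'/5' ratio, which grows as RNA is degraded or shortened (2.70, beside 1.82 to 2.42 on the other KO arrays and 1.88 to 2.27 on the wild type arrays). Without KO 3 the change of Car2 was -0.39, without both arrays of highest ratio (KO 2 and KO 3) -0.36, and among males only -0.35, and none of these passed. All of these settings leave out KO 3. Without KO 2 alone the change was -0.49, and without KO 6 alone it was -0.49. With KO 3 left out Car2 still passed after quantile normalization (-0.51; limma, adjusted p = 0.042) and after spiked scaling (-0.58; adjusted p = 0.047), and among males only it passed after neither (-0.47 and -0.53; adjusted p = 0.083 and 0.103). The arrays also fell into a set with higher signals of poly-A spike-in controls (3 KO, 2 wild type) and a set with lower ones (3 KO, 3 wild type). Within these sets the change of Car2 was -0.30 and -0.68, and with the poly-A control level as a covariate it was -0.51. The part of these properties in the result was not tested.

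Car2 is also abundant in red blood cell precursors and in osteoclasts, which resorb bone. Of 13 erythroid markers 7 were tested, and 2 of them, the embryonic globins Hbb-y and Hbb-bh1, rose in the KO (2.19 ± 0.21 and 2.001 ± 0.29, SE; limma, adjusted p = 2.78e-05 and 0.00203). Over the 7 tested, 4 changes were positive and 3 negative. Alas2, the heme synthesis enzyme of red cells and the brightest of the list, had 0.17, and the regulators of red cell genes Gata1 and Klf1 had -0.24 and -0.07. The summed signal of the tested markers was 1362 to 1790 on the KO arrays and 887 to 1340 on the wild type arrays. This sum holds the 2 globins, so it is not separate from their rise. Hbb-y averaged 463 in KO and 87.2 in wild type, Hbb-bh1 85.3 and 13.2, and Alas2 802 and 722. Of 8 osteoclast markers 6 were tested, and 1 rose: Acp5, the tartrate-resistant acid phosphatase (0.88 ± 0.19, SE; limma, adjusted p = 0.0476). The proteases Mmp9 and Ctsk had 0.73 and 0.18, 5 of the 6 changes were positive and 1 negative, and the summed signal was 1979 to 3224 in KO and 1951 to 2122 in wild type. The part of such cells in the Car2 signal was not tested. In whole tissue, fewer cells of a type and less RNA per cell cannot be told apart.

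Among the 15 other carbonic anhydrases, enzymes of the same reaction in other cells or compartments, 13 were tested and none passed (limma; median change 0.20, 10 positive and 3 negative). Car11, a relative without catalytic activity, was nearest to Car2 in size with a change of -0.47 ± 0.15 (SE; adjusted p = 0.333). Its mean signal was 127 ± 16.2 in KO (SD, n = 6) and 182 ± 25.5 in wild type (SD, n = 5), and its arrays did not overlap. Car9, a membrane enzyme induced by low oxygen, had 0.75 ± 0.38 (adjusted p = 0.765), with a wide spread among KO arrays (424 ± 253 in KO, 205 ± 48.1 in wild type).

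Over the 11 arrays, after each group was centred on its mean, the 3 genes whose pattern was most like that of Car2 among 15128 genes were Ap1ar (Pearson r 0.96, Spearman rho 0.89), Marchf2 (r 0.95, rho 0.95) and Ints4 (r 0.94, rho 0.90). All values of an array share its labelling and its GAPDH scaling, and these coefficients are a description of the highest of many. None of the 3 followed Car2 between the groups, with changes of 0.04, -0.03 and 0.11 (limma, adjusted p of 0.974 to 0.995).

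Pde2a, which like Car2 has a part in the cGMP signalling of GC-D neurons, was represented by 3 probe sets. On the brightest (1447707_s_at) the KO arrays had a lowest signal of 1271.7, a median of 1506.25 and a highest of 1949.9, against 1085.2, 1363.2, 1527.6, 1186.2 and 1301.1 on the wild type arrays. Here 3 of 6 KO arrays (KO 1, KO 2 and KO 5) lay above every wild type array and the other 3 lay among them. The change was 0.25 ± 0.13 (SE; 95% interval -0.03 to 0.53; limma, adjusted p = 0.806). The second probe set (1452202_at) gave 0.28 ± 0.17 (95% interval -0.07 to 0.64), with means of 206 ± 40.6 in KO (SD, n = 6) and 166 ± 28.7 in wild type (SD, n = 5). The third (1447708_x_at) gave 0.06 ± 0.18, with KO arrays between 135.1 and 234.9 and wild type arrays between 128.7 and 226.3. After centring of the groups the first and second probe sets followed each other over the 11 arrays (r = 0.76), while the third followed the second less (r = 0.47) and the first not at all (r = -0.05). The suffix of the third marks probes that can bind transcripts of other genes. That of the first (_s_at) marks probes shared by several transcripts. What either probe set binds was not examined here.

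Within the sets of arrays with higher and lower poly-A controls the first Pde2a probe set differed by 0.22 and 0.31. After spiked scaling the difference was 0.07, and among males only 0.33, neither of which passed. With the spiked scaling the median over all tested probe sets also moved down, to -0.11 from 0.05, and Pde2a lay above it. Pde2a is also made by endothelial cells. Of 10 endothelial markers all were tested and none passed (limma; median change 0.15). The junction proteins Cldn5 and Esam, the brightest, had -0.06 and 0.12, and the summed signal was 3374 to 4759 in KO and 3181 to 4520 in wild type. Their part in the Pde2a signal was not tested.

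Other phosphodiesterases did not pass either. Of 23 listed, 18 were tested, with 10 changes above 0, 8 below and a median of 0.03. The smallest p belonged to Pde7b, a cAMP phosphodiesterase (-0.53 ± 0.17, SE; limma, adjusted p = 0.302; 1217 ± 343 in KO and 1721 ± 193 in wild type), and to Pde4b, of the same specificity (0.40 ± 0.16; adjusted p = 0.577). Pde4b was higher in mean, at 328 ± 53.7 in KO (SD, n = 6) and 245 ± 44.4 in wild type (SD, n = 5). Pde2a lay between them.

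**Figure D2:**
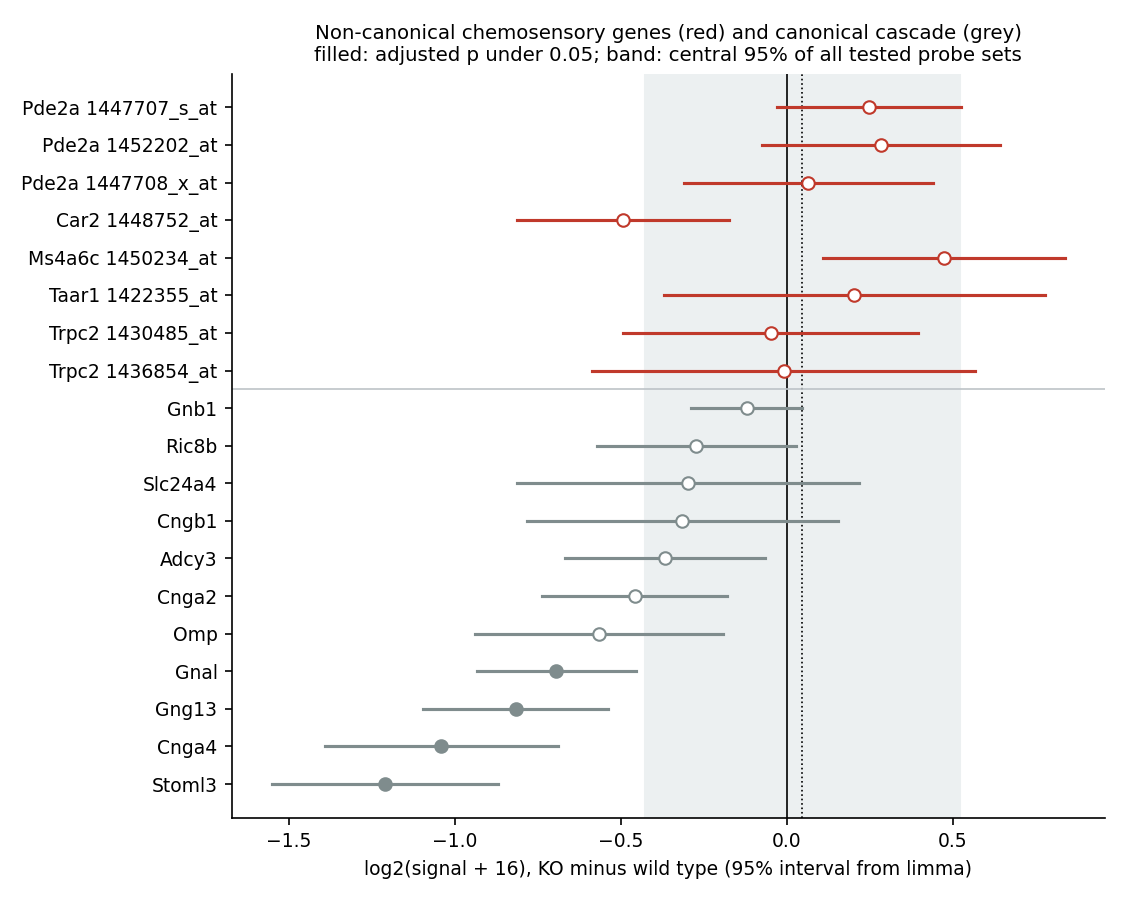
Change (KO minus wild type, log2(signal + 16), with 95% interval from limma) of the 8 tested probe sets in red and of 11 genes of the canonical OSN cascade in grey; filled points passed an adjusted p of 0.05, the band holds the central 95% of all tested probe sets and the dotted line is their median (0.05). The red points run from -0.49 (Car2) to 0.47 (Ms4a6c) and are all open, and the 4 filled points are Gnal, Gng13, Cnga4 and Stoml3. Each grey gene is shown on its brightest tested probe set only.

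None of the named partners and relatives of GC-D passed. The ligands guanylin and uroguanylin (Guca2a and Guca2b) had mean signals under 20 and were not tested. Of 6 other membrane guanylyl cyclases 2 were tested: the natriuretic peptide receptor Npr2 had a change of -0.09 and the guanylin receptor Gucy2c, known from the intestine, of -0.02 (limma, adjusted p = 0.983 and 0.997). The retinal cyclase Gucy2e was under 20. Of 7 calcium sensors related to those that regulate such cyclases 6 were tested, with changes from -0.07 to 0.17; those of smallest p were Hpcal1 (0.17) and Hpcal4 (0.16). Hpca (hippocalcin), a calcium sensor that can act on GC-D of the rat, had -0.01 ± 0.29. The cGMP-dependent kinases Prkg1 and Prkg2 had -0.01 and -0.06.

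The subunits of soluble guanylyl cyclase, which responds to nitric oxide, all stood above 0 without passing. Gucy1a1 had 0.31 ± 0.19, Gucy1b1 0.29 ± 0.20 and Gucy1a2 0.24 ± 0.24 (SE; limma, adjusted p of 0.875 to 0.96). Gucy1b2, which marks some of the Trpc2 cells of the MOE, had no probe set naming it in the annotation used here.

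Of 5 cyclic nucleotide-gated channel subunits 4 were tested and 1 passed. Cnga4, a subunit of the channel of ordinary OSNs, fell to 241 ± 51.3 in KO (SD, n = 6), against 509 ± 84.7 in wild type (SD, n = 5), a change of -1.04 ± 0.17 (SE; limma, adjusted p = 0.00468). Cnga2, the main subunit of that channel and the relative of Cnga3, had -0.46 ± 0.13 (adjusted p = 0.22), with no overlap between the groups. Cngb3, which pairs with Cnga3 in cone photoreceptors, had 0.03 ± 0.20 at mean signals of 21.0 in KO and 20.2 in wild type. Of the 14 listed genes of the canonical cascade 11 were tested, all 11 had a negative change and 4 passed (median -0.46), each gene on its brightest probe set. Of all tested probe sets of a gene, 1 of 3 passed for Gnal, 1 of 2 for Gng13, 2 of 2 for Stoml3 and 1 of 1 for Cnga4. Of the 5 tested member genes 2 had a negative change on their brightest probe set, Car2 and Trpc2. Whether the 2 lists differ in their changes was not tested. These cascade genes were known from earlier results to be lower in these mice.

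Of the MS4A members, Ms4a6c was tested and Ms4a4b was too dim to test. On its brighter probe set (1450234_at) Ms4a6c had a lowest signal of 197, a median of 266.45 and a highest of 289.1 in the KO, against 168.4, 266.6, 174.2, 139.2 and 150.1 on the wild type arrays. All 6 KO arrays lay above 4 of the 5 wild type arrays, and WT 2 alone lay within the KO range. The mean was 252 ± 37.8 in KO (SD, n = 6) and 180 ± 50.6 in wild type (SD, n = 5), or 140% of wild type. The change was 0.47 ± 0.17 (SE; 95% interval 0.11 to 0.84), which did not pass (limma, adjusted p = 0.473), and an exact permutation test of Ms4a6c alone gave p = 0.026, not adjusted for the other probe sets.

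The second Ms4a6c probe set (1457725_at) did not share this difference. Its mean signal over all arrays was 19.9, just under the minimum of 20, and it read 11.5 to 33.2 on the KO arrays and 11.2 to 26.8 on the wild type arrays. With the 2 averaged the change of Ms4a6c was 0.19 (limma, adjusted p = 0.912), and without WT 2 it was 0.61 on the brighter one (adjusted p = 0.171). Within the sets of arrays with higher and lower poly-A controls it was 0.38 and 0.48.

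Both Ms4a4b probe sets were near the bottom of the scale on nearly all arrays. One (1425325_at) read 0.7 to 9 on the KO arrays and 16.6, 4.6, 1.8, 7.6 and 0.3 on the wild type arrays. The other (1423467_at) read 0.8 to 20.7 on the KO arrays, with the highest on KO 5 and the next at 7.8 on KO 3, and 0.9 to 2 on the wild type arrays. No change is given for this gene.

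MS4A genes are widely used by blood cells, Ms4a6c and its relatives by macrophages and Ms4a4b by T cells. Of 14 macrophage markers all were tested and none passed (limma; median change 0.16, 10 positive and 4 negative). The colony-stimulating factor receptor Csf1r had 0.13, the lysozyme Lyz2 -0.19, and Cd14, which is named after its value was seen, 0.77 ± 0.20 (SE; adjusted p = 0.147). Their summed signal was 8446 to 10729 on the KO arrays and 8096 to 9355 on the wild type arrays. Of 12 T cell markers 4 were tested, none passed, and 7 of the others, Cd3d, Cd3e, Cd3g and Cd4 among them, were under 20. Thy1, also made by neurons, and Cd247 had -0.04 and -0.15, and the summed signal was 301 to 610 in KO and 406 to 582 in wild type. The part of such cells in the Ms4a6c signal was not tested.

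Of 18 other genes of the MS4A family, the related Tmem176a and Tmem176b included, 9 were tested and none passed (limma; median change 0.06, 6 positive and 3 negative). Ms4a4c, which lies next to Ms4a4b in the genome, had 124 ± 67.5 in KO (SD, n = 6) and 51.8 ± 15 in wild type (SD, n = 5), a change of 0.90 ± 0.31 (SE; adjusted p = 0.424). Ms4a6d, another macrophage gene, had 0.29 ± 0.15 (adjusted p = 0.765), while Ms4a6b had 0.06 and Ms4a7 -0.14. Ms4a4b and Ms4a6c are direct neighbours as well, and probes for such related genes can share transcripts, which was not examined here.

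**Figure D3:**
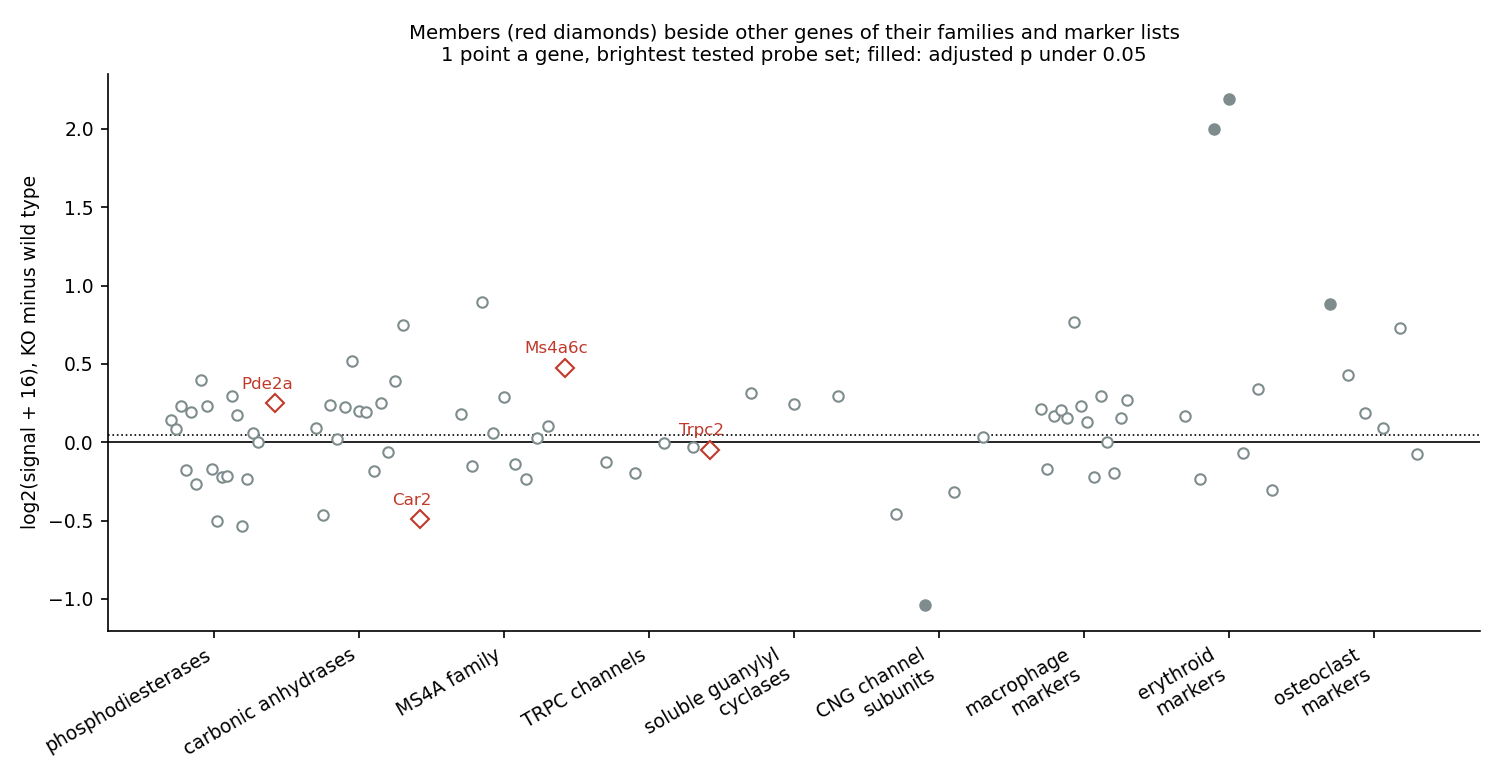
Change (KO minus wild type, log2(signal + 16)) of the members as red diamonds, beside the other tested genes of their families and marker lists as grey circles, 1 per gene on its brightest tested probe set; filled circles passed an adjusted p of 0.05 and the dotted line is the median of all tested probe sets. Filled are Cnga4 (-1.04) among channel subunits, Hbb-y and Hbb-bh1 (2.19 and 2.001) among erythroid markers and Acp5 (0.88) among osteoclast markers, and none in the families of Pde2a, Car2, Ms4a6c and Trpc2.

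Taar1 was dim. Its probe set (1422355_at) read a lowest of 3.7, a median of 26.6 and a highest of 37.6 on the KO arrays and 6.1, 18.1, 32.8, 16.8 and 15.9 on the wild type arrays. The lowest of all was KO 3 and the next WT 1, so that each group spanned most of the range. The mean over all arrays was 21.1, just above the minimum. The group means were 23.65 in KO and 17.94 in wild type, and that of wild type lay under the minimum. The probe set was therefore tested only because the KO arrays raised the mean over all arrays. The change was 0.20 ± 0.27 (SE; 95% interval -0.37 to 0.78; limma, adjusted p = 0.976). It was 0.060 without WT 1 and 0.39 without KO 3, and did not pass with any 1 array left out. Within the sets of arrays with higher and lower poly-A controls it was 0.67 and -0.17. For none of the 14 other TAAR genes listed was there a probe set naming it alone, so the receptors that OSNs do use were not analysed here.

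Trpc2 was close to equal in the groups on both of its probe sets. The brighter (1430485_at) had a lowest signal of 63.6, a median of 101.5 and a highest of 153.2 in the KO, against 123.5, 138.8, 106.8, 71.5 and 88.7 on the wild type arrays. The lowest of all was KO 2 and the highest KO 4, so the KO arrays enclosed the wild type range. The change was -0.05 ± 0.21 (SE; 95% interval -0.49 to 0.40; limma, adjusted p = 0.992). The other (1436854_at) read 35.8 to 119.6 on the KO arrays and 42.8 to 98.4 on the wild type arrays, a change of -0.01 ± 0.27 (95% interval -0.59 to 0.57). After centring of the groups both followed each other over the 11 arrays (r = 0.81). The wider of these intervals reaches past the changes of Car2 and Ms4a6c in their directions. Within the sets with higher and lower poly-A controls the brighter one differed by -0.32 and 0.13.

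Trpc2 overlaps the genes Xndc1 and Xntrpc (a readthrough of the other two), and 2 further probe sets are annotated to Trpc2 together with one of them. That shared with Xndc1 had a change of 0.11 ± 0.16 (SE; limma, adjusted p = 0.98), with KO arrays at 136.3 to 214.2 and wild type arrays at 133.6 to 196.9. That shared with Xntrpc was under 20. Since Trpc2 also marks the vomeronasal organ, its other markers were examined. The receptors Vmn1r51 and Vmn1r45 and the factor Tfap2e were under 20, and Vmn2r1 averaged 29.6 in KO and 23.6 in wild type. Gnai2 and Gnao1, G protein alpha subunits that other cells use as well, had changes of 0.16 and 0.05, and the transcription factor Meis2 had 0.49 (adjusted p of 0.356 to 0.99). None passed. Of 6 other channels of the TRPC family 4 were tested, with changes from -0.19 (Trpc4) to -0.0021 (Trpc5) and -0.13 for Trpc1, the brightest of them; none passed.

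**Figure D4:**
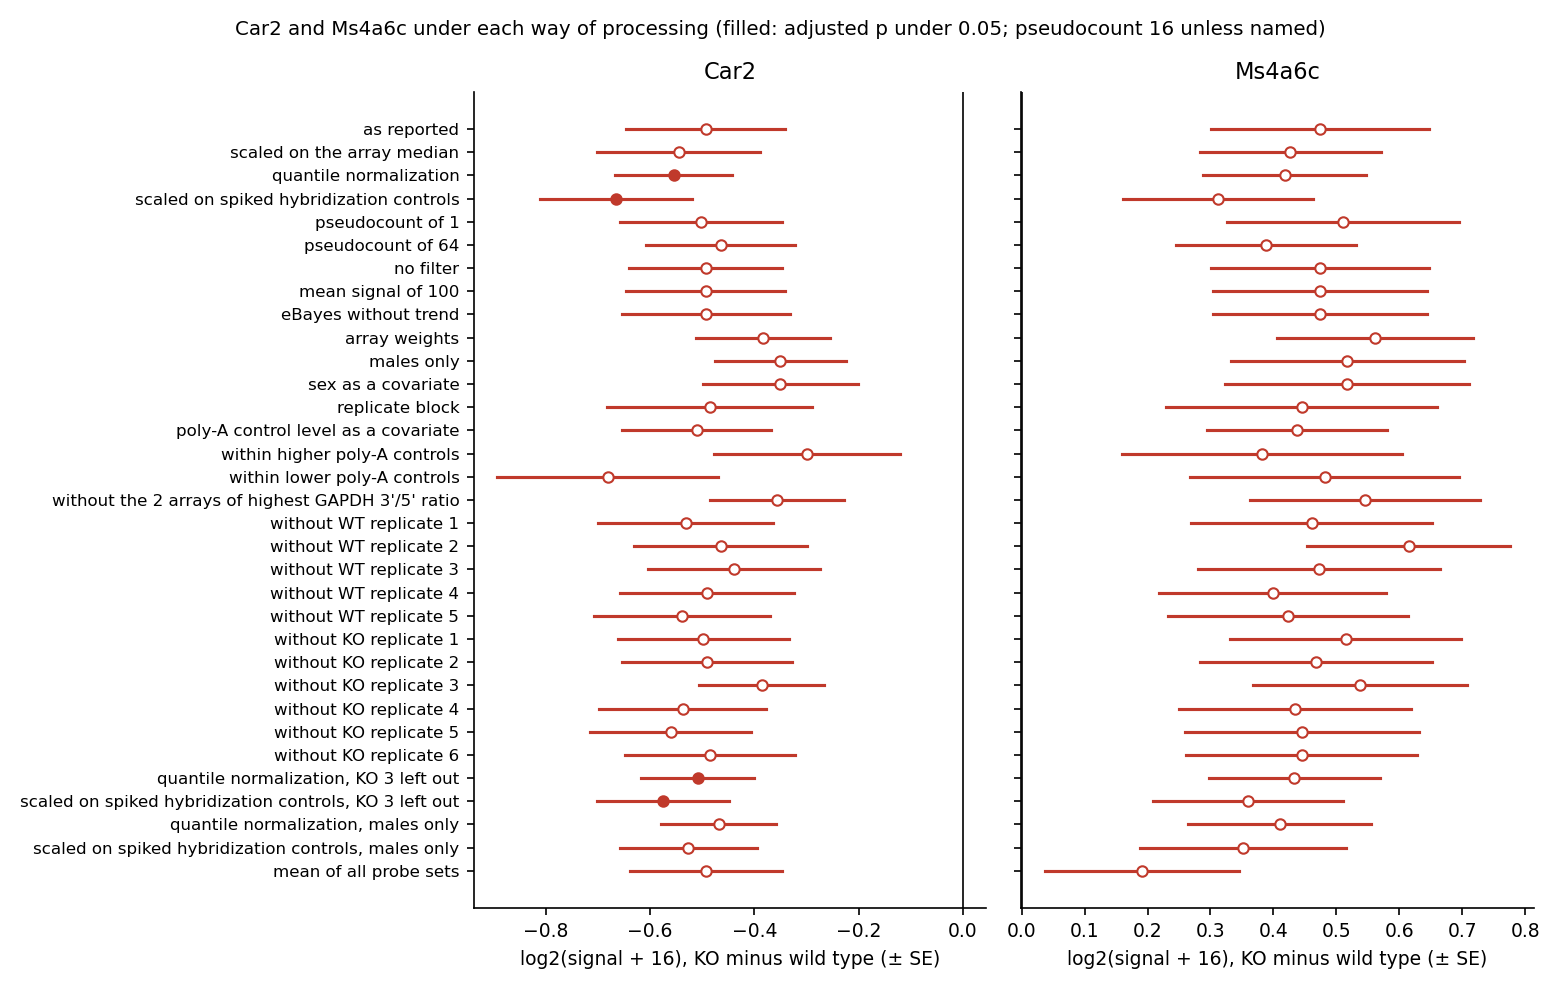
Change of Car2 (left) and Ms4a6c (right), KO minus wild type ± SE from limma, under each way of processing; filled points passed an adjusted p of 0.05. Car2 stays between -0.68 and -0.30 and is filled in 4 settings, quantile normalization and spiked scaling with and without KO 3, and Ms4a6c stays between 0.19 and 0.61 and is filled in none.

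Facts of the whole series bear on these values as follows. Bcl11b itself fell in the KO on each of 4 probe sets. The brightest read 560.5 to 1249.8 in KO and 2694.3 to 4122.7 in wild type (limma, adjusted p = 1.2e-05), and no array went against its label. Array medians were 62 to 86.5 in KO and 56.6 to 85.7 in wild type. Markers of mature OSNs were present on all arrays. Of 8 listed, 7 were tested, and all 7 had a negative change (median -0.69). Of these, 4 passed: Stoml3, Umodl1, Gng13 and Gnal. Omp, Cnga2 and Adcy3 had -0.57, -0.46 and -0.37 and did not pass. All those tested except Umodl1 are also in the list of the canonical cascade above, so the 2 lists are not separate. The labels give no litter, day or hybridization date, and whether the preparations share them is unknown. The sample titles carry numbers, in which the wild type preparations lie together between lower and higher KO numbers. What these numbers stand for is not given.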

How the data were processed

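RNA of 11 MOE preparations was hybridized to Affymetrix Mouse Genome 430 2.0 arrays after 2 rounds of amplification. The deposited values are intensities on a linear scale, which the authors scaled on each array to its GAPDH signal in GeneChip operating software (GCOS, version not given in the sources used here); this probe set reads 10000 throughout, so a difference in GAPDH itself would move all values. No detection calls were used. Of 45101 probe sets, 34958 had 1 gene symbol, 932 several and 9211 none; the symbols of all 11 member probe sets matched RefSeq (GRCm38.p6) through Entrez identifiers. RefSeq was used for names and neighbours only.

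Intensities were taken as log2(signal + 16). After removal of 64 control probe sets and those of mean signal under 20, 33662 remained. The fit of KO against wild type used limma 3.58.1 (R 4.3.3; lmFit, eBayes with trend, no covariate), with Benjamini-Hochberg adjustment over all of them and a threshold of 0.05. Single probe sets also had an exact permutation test (two-sided). The fit was also run on simulated data, where most changes about as large as those of Car2 and Ms4a6c did not pass. A change that did not pass is therefore not shown to be absent. Precision is limited by how many arrays there are, and p-values set a difference between the groups against the spread between preparations within them.

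All member probe sets are named. Elsewhere a gene is represented by its brightest tested probe set, and named were those that passed, the 2 of smallest p in each gene family and the 2 brightest in each marker list; a few others are named for their role, after their values were seen. Members and lists were chosen with earlier results of these data known. Alternatives were other scalings, pseudocounts of 1 and 64, no filter or a minimum of 100, other variance models, males only, sex or poly-A control level as a covariate, arrays within poly-A level, the replicate number as a block, gene means, and leaving out arrays. Scalings combined with fewer arrays were added after the data were seen. Replicate numbers do not pair mice of the 2 groups in the labels.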

Additional observations from a re-analysis of the deposited data

How the results depend on the processing

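The number of member probe sets that passed was 0 as reported and 1 (Car2) after quantile normalization, after scaling on spiked controls and after either with KO 3 left out, and it was 0 under every other alternative, including each omission of 1 array (0 to 0). Car2 kept its direction throughout, with -0.55 after quantile normalization, -0.67 after spiked scaling, and -0.51 and -0.58 after these with KO 3 left out; over omissions of 1 array it ran from -0.56 to -0.39. Pde2a (0.07 to 0.33) and Ms4a6c (0.19 to 0.61) kept their direction and did not pass under any alternative run. Taar1 ran from 0.060 to 0.39 over omissions of 1 array and turned to -0.17 within the arrays of lower poly-A controls. Trpc2 turned to 0.036 with array weights, 0.0043 with the replicate block, 0.13 within the arrays of lower poly-A controls and 0.028 without both arrays of highest GAPDH 3'/5' ratio, and over omissions of 1 array it ran from -0.16 to 0.059; the cause was not tested. Taar1 could not be tested with a minimum of 100. The count of member probe sets at an unadjusted p under 0.05 (limma) was 2 as reported and moved with the setting. It was 4 among males only, with sex as a covariate and without KO 3. After spiked scaling and with the replicate block it was 1, and within the arrays of higher poly-A controls 0. The share over all probe sets is not given for these settings.

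Over all probe sets 153 passed. The count was 293 after quantile normalization, 290 after spiked scaling, 282 and 251 after these with KO 3 left out, 240 after quantile normalization among males only, 345 with array weights, 284 without the 2 arrays of highest GAPDH 3'/5' ratio, 31 and 39 within the arrays of higher and lower poly-A controls, and 85 to 213 when 1 array was left out (85 without WT 3 and 97 without WT 5). The share that was higher in KO was 53.6% as reported, 41.0% after quantile normalization, 20.3% after spiked scaling and 71.8% without the 2 arrays of highest ratio. With the replicate block, to which KO 6 adds nothing for want of a partner, 91 passed; same-numbered preparations deviated together with r over 0.1 in 0 of 5 pairs, and none correlated best with its own number.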
